A study of Mus musculus with 3 samples.

Results

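The 10 genes described here are carried by the mitochondrial genome itself and encode subunits of the respiratory chain: mt-Nd1, mt-Nd2, mt-Nd3, mt-Nd4 and mt-Nd5 of complex I, mt-Cytb of complex III, mt-Co1, mt-Co2 and mt-Co3 of complex IV, and mt-Atp6 of the ATP synthase, complex V. They form a list of names with no threshold on a value, drawn up with earlier results of these data known, out of 18545 genes in the matrix, which holds 13 mitochondrially encoded genes in all, the other ones being mt-Nd4l, mt-Nd6 and mt-Atp8. Retinas of mice aged 8 weeks and housed in the dark throughout life were dissociated with papain. Each of the 3 groups gave 1 droplet library, pooled from 1 retina of each of 4 mice per the labels. For both rd10 pools the methods of the study name fewer mice than the labels. WT mice were C57BL/6J, 2 females and 2 males, on base chow. The rd10-vehicle group was of female Rd10 mice on that chow, and the rd10-TMB group of female Rd10 mice on chow with tamsulosin, metoprolol and bromocriptine from the end of the fourth postnatal week. Rd10 mice carry a mutation in the rod phosphodiesterase gene Pde6b and lose their rods, more slowly in the dark. The libraries held 4478 WT, 5952 rd10-vehicle and 4812 rd10-TMB cells, and 5428342 of their 85078013 unique molecular identifiers (UMIs, each 1 captured RNA molecule) came from the 10 genes.

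Mitochondria make ATP by passing electrons along complexes I to IV, which pump protons across the inner membrane, and letting the protons flow back through complex V. A small circular genome, present in many copies per cell, encodes a few core subunits of these complexes, and nuclear genes encode all the rest. Each strand of the circle is transcribed as 1 long RNA that is cut, largely at the transfer RNAs, into messengers with short poly(A) tails, so the levels of the messengers depend on transcription, cleavage and stability. Photoreceptors are among the most energy-demanding cells of the body. In droplet data the mitochondrial share of the UMIs of a cell is also used as a sign of cell damage, because a cell with a broken membrane loses cytoplasmic RNA more readily than RNA kept inside mitochondria.

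Reads start from poly(A) tails, so the 3′ ends of the messengers are what the libraries captured. The last 30 bases of 6 of the genes, read from the GENCODE vM21 transcripts on GRCm38, are printed 5′ to 3′ with the stop codon, or the part of it that the genome encodes, in capitals. The first 3 are shown because mt-Nd2, mt-Nd3 and mt-Co1 carried the differences in composition described further on, and the last 3 because their genes end in a lone T, which the poly(A) tail completes to a stop codon. All 6 lie on the plus strand, at chrM:4922-4951, chrM:9777-9806, chrM:6843-6872, chrM:9361-9390, chrM:11515-11544 and chrM:15259-15288 in the order printed.
mt-Nd2: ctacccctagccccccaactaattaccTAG
mt-Nd3: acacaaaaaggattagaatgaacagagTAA
mt-Co1: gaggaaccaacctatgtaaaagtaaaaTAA
mt-Co3: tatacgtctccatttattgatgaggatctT
mt-Nd4: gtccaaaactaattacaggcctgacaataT
mt-Cytb: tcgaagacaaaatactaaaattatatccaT

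Of the 10 genes, 7 end in a complete stop codon and 3 do not, and their annotated lengths run from 348 bases for mt-Nd3 to 1824 bases for mt-Nd5. None has an intron. Neighbours overlap in places: mt-Atp6 shares 43 bases with mt-Atp8 and 1 base with mt-Co3, mt-Nd4 shares 7 bases with mt-Nd4l, and mt-Nd5 shares 14 bases with mt-Nd6 on the opposite strand. A run of 7 annotated pseudogenes at chr1:24611535-24616197 copies part of the mitochondrial genome at 98.8% to 100% identity, and 6 of the 10 genes have a copy there (mt-Co1, mt-Co2, mt-Co3, mt-Atp6, mt-Nd3 and mt-Nd4). None of the 7 pseudogenes is among the genes of the matrix. How reads shared between a gene and its copy were counted was not tested, so the levels of those 6 genes are uncertain to that extent, while mt-Nd1, mt-Nd2, mt-Nd5 and mt-Cytb have no such annotated copy.

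Over whole libraries the 10 genes took 6.32% of the UMIs of WT, 6.30% of those of rd10-vehicle and 6.52% of those of rd10-TMB. The genes were detected nearly everywhere, and 2 of 15242 cells lacked a UMI of any of them. The median mitochondrial share of a cell, all 13 genes counted, was 6.31%, 6.38% and 6.51% in the same order, and the highest cell of each library stood between 19.96% and 20%. Cells with a higher share thus appear to have been left out before deposit, a step not given in the sources used here. Cells over 10% made up 19.9% of the WT library, 13.2% of the rd10-vehicle library and 14.4% of the rd10-TMB library. Median UMIs per cell were 3509.5, 4811.5 and 4772.5. Since each group is 1 library, no test was possible. Each interval given is a 95% exact interval that covers counting error only, and neither the spread between mice nor that between dissociations is known.

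Cells were grouped by the deposited cluster numbers, which were named here from marker genes and may not match the names of the study. With at least 50 cells in each library, 10 classes could be compared: Müller glia (MG)-like, rod-like, rod bipolar (RBC)-like, ON cone bipolar-like, OFF cone bipolar-like, cone-like, amacrine-like and endothelial-like cells, plus clusters 6 and 10, which carried both ON cone bipolar and amacrine markers and are kept by number. The defining markers were raised in full in MG-like (8 of 8), rod-like (9 of 9), RBC-like (8 of 8) and cone-like cells (8 of 8), and in 5 of 8 for the ON cone bipolar-like cluster. The 2 amacrine-like clusters raised 8 and 7 of 9 amacrine markers. Of the OFF cone bipolar-like clusters, cluster 8 raised 8 of 9 markers, while cluster 7 raised only 3 of 9 and as many ON cone bipolar markers. The endothelial-like cluster raised 7 of 7 markers as a whole but was mixed. Of its 137 WT cells, 46 held fewer than 3 UMIs of the 7 endothelial markers and summed 3043 CPM (UMIs scaled to a total of 1000000) of the rod bipolar, 3079 CPM of the ON cone bipolar and 2414 CPM of the OFF cone bipolar marker list. In rd10-vehicle 7 of 156 endothelial-like cells and in rd10-TMB 8 of 100 held so few.

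Of the 10 classes compared, cone-like cells had the highest percent of their UMIs from the 10 genes in each library. Some of the smaller clusters left out of this comparison stood higher. In WT the 10 genes together took 8.68% of the UMIs of cone-like cells, 8.20% of RBC-like and 7.60% of ON cone bipolar-like ones. The others followed with 6.98% in OFF cone bipolar-like, 6.40% in cluster 10, 5.80% in MG-like, 5.35% in endothelial-like, 5.33% in cluster 6, 5.09% in rod-like and 4.98% in amacrine-like cells. Of these neighbours only the endothelial-like class and cluster 6 had counting intervals that overlapped. From the lowest to the highest class the level spanned 1.74-fold.

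The order was not the same in the rd10 libraries. In rd10-vehicle the summed level ran from 3.62% in endothelial-like to 10.2% in cone-like cells, and the intervals of OFF cone bipolar-like and RBC-like, of rod-like and MG-like, and of MG-like cells and cluster 6 overlapped. In rd10-TMB it ran from 3.93% in endothelial-like to 10.3% in cone-like cells with no overlap between neighbours. Cone-like cells stood first of the 10 classes in each library. Rod-like cells, the other photoreceptor class, stood at rank 9 of 10 in WT, at rank 6 in rd10-vehicle and at rank 7 in rd10-TMB.

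**Figure D1:**
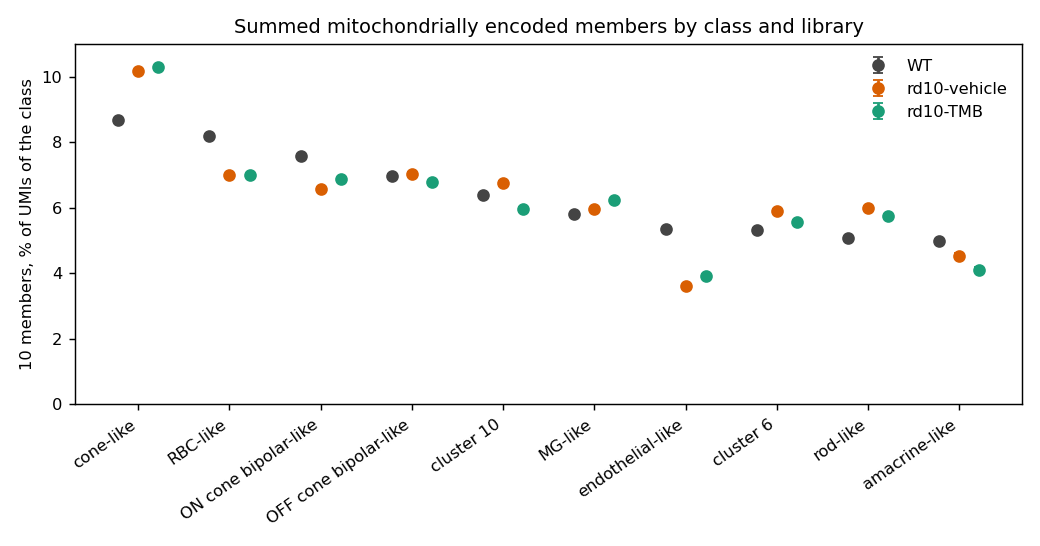
Summed UMIs of the 10 genes as a percent of all UMIs (vertical axis) in each of 10 cell classes (horizontal axis), 1 point per library for WT, rd10-vehicle and rd10-TMB, with bars for the 95% counting interval, mostly hidden by the points. Cone-like cells sit highest at 8.68%, 10.2% and 10.3%, and the widest gap between libraries is in endothelial-like cells, at 5.35% in WT against 3.62% and 3.93%.

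Which of the 10 genes was most abundant depended on the scale. Each UMI marks 1 molecule caught at its 3′ end, so CPM compares molecules without a correction for length. CPM per kilobase divides by the annotated length of the gene and lifts the short genes. In WT mt-Atp6, the subunit that forms the proton path of the ATP synthase with the rotor ring, ran from 8881 to 15712 CPM over the classes, which is 13041 to 23072 CPM per kb. The complex IV subunits mt-Co2, which takes electrons from cytochrome c, and mt-Co3 ran from 6878 to 12451 and from 7175 to 15382 CPM, or from 10056 to 18203 and from 9151 to 19619 CPM per kb. mt-Co1, a longer gene, reached the highest single level in CPM, 15758 in RBC-like cells, but only 10200 CPM per kb. At the lower end mt-Nd5, a proton-pumping subunit of complex I and the longest of the 10 genes, ran from 736 to 1951 CPM and overlapped mt-Nd3, the shortest, at 879.6 to 1462 CPM. Per kilobase mt-Nd5 lay below mt-Nd3, at 404 to 1070 against 2527 to 4201 CPM per kb.

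The genes did not keep one ratio to each other from class to class. In WT mt-Co1, the catalytic subunit of complex IV that binds oxygen, ran from 4203 CPM in rod-like to 15758 CPM in RBC-like cells, a 3.75-fold span, and mt-Nd2, a proton-pumping subunit of complex I, from 3523 CPM in cluster 6 to 8354 CPM in MG-like cells, a 2.37-fold span. mt-Atp6 spanned 1.77-fold and mt-Nd3 1.66-fold. Thus the class with the most mt-Nd2 was not among those with the most mt-Co1.

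This shows best in the ratio of the UMIs of mt-Co1 to those of mt-Nd2, in which the total mitochondrial share cancels. In WT the ratio was 0.76 in MG-like, 1.04 in rod-like and 1.36 in amacrine-like cells. It was 2.97 for the ON cone bipolar-like class, 2.99 for cone-like, 3.198 for RBC-like and 3.45 for OFF cone bipolar-like cells. MG-like, rod-like and amacrine-like cells thus had the lower ratios, and bipolar-like and cone-like cells the higher ones, also in rd10-vehicle (1.11, 1.17 and 1.11 against 3.43, 2.45, 3.08 and 3.33) and in rd10-TMB (1.12, 1.32 and 1.42 against 3.69, 2.97, 3.74 and 3.72). In the order WT, rd10-vehicle and rd10-TMB, endothelial-like cells lay between these sets at 2.55, 2.01 and 2.32, cluster 6 was at 2.83, 3.22 and 3.53, and cluster 10 at 2.43, 2.40 and 2.85. The photoreceptor classes differed, with rod-like cells in the lower set and cone-like cells in the higher.

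The same contrast appeared when each gene was given as a share of the UMIs of the 13 mitochondrial genes. In WT mt-Co1 took 8.07% of mitochondrial UMIs in rod-like, 10.7% in MG-like and 11.6% in amacrine-like cells and reached 19.2% in OFF cone bipolar-like cells, while mt-Nd2 took 14.1% in MG-like and 5.46% in cone-like cells. mt-Nd1, which sits at the quinone-binding site of complex I, took 9.01% in amacrine-like and 3.30% in cone-like cells, the widest span of any of the 10 at 2.73-fold. mt-Atp6 was steadier, from 15.8% in RBC-like to 21.2% in rod-like cells. Over 35 sums of 1 cluster in 1 library with at least 50 cells, which share 3 libraries and differ in depth, the Pearson correlation of log2 CPM between members had a median of 0.73 and a highest value of 0.98, and the lowest pair was mt-Nd2 with mt-Co1 at 0.12.

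**Figure D2:**
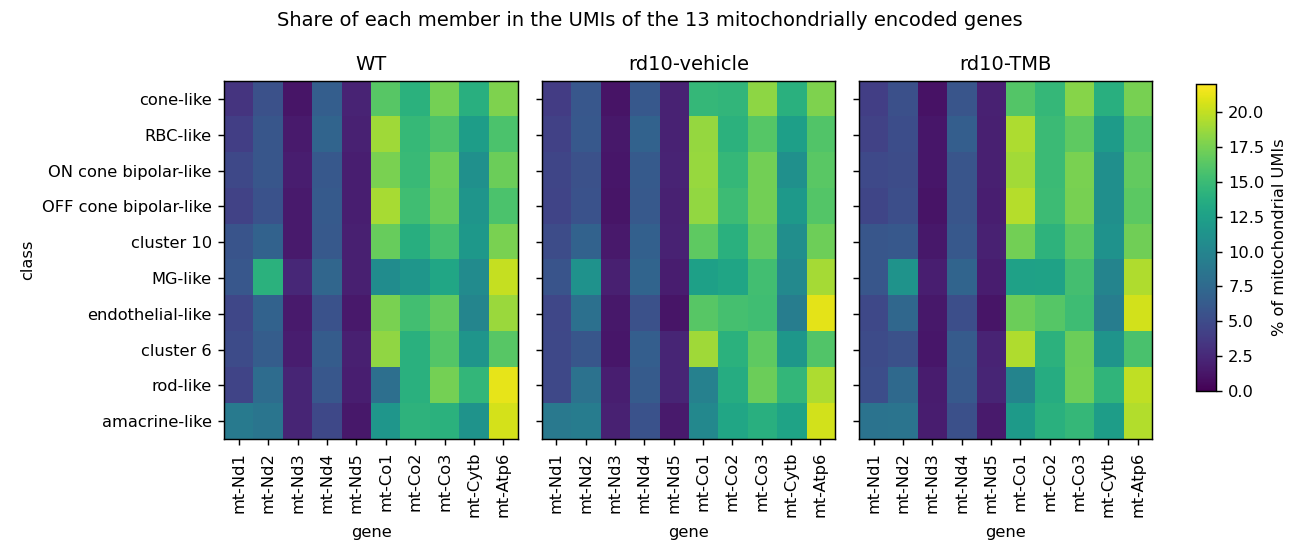
Share of the UMIs of the 13 mitochondrially encoded genes taken by each of the 10 genes (columns) in each cell class (rows), 1 panel per library, colour from 0 to 22%. In WT mt-Co1 goes from 8.07% in rod-like to 19.2% in OFF cone bipolar-like cells, and mt-Nd2 from 14.1% in MG-like to 5.46% in cone-like cells.

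The comparison of rd10-vehicle with WT asks what the degenerating retina looks like without the drugs. A gene counted as past the fold when its CPM differed by at least 0.322 on the log2 scale in either direction and it had at least 200 UMIs over both libraries. In rod-like cells the 10 genes together were 0.24 higher on the log2 scale (0.22 to 0.25), or 0.12 with only cells of at least 1000 genes, and 9 of 10 lay above 0. The gap was widest for mt-Co1, at 4203 CPM in WT and 5938 in rd10-vehicle (log2 difference 0.50, 0.45 to 0.55), and for mt-Nd5, at 983 and 1388 CPM (0.50, 0.39 to 0.61). mt-Nd3, whose loop helps complex I switch between its active and resting states, was the exception at 1198 and 1147 CPM (-0.06, -0.17 to 0.05). In all 3 of 10 were past the fold upward (mt-Co1, mt-Nd5 and mt-Nd2), against 11.6% of all genes tested in that class, and 0 of 10 downward, against 17.4%. mt-Nd2 stood just past the limit at 0.327, and mt-Nd4 just short of it at 0.319.

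Cone-like cells were higher in rd10-vehicle too. The 10 genes together were 0.23 higher on the log2 scale (0.22 to 0.24), and 10 of 10 lay above 0. The gap was widest for mt-Nd1, at 2921 CPM in WT and 4006 CPM in rd10-vehicle (0.46, 0.40 to 0.51), and mt-Nd2 was next at 4824 and 6172 CPM (0.36, 0.31 to 0.40). mt-Co1, the gene furthest apart in rod-like cells, was at 14422 and 15151 CPM in cone-like cells, a difference of 0.07. With mt-Nd1 and mt-Nd2, 2 of 10 were past the fold upward, against 7.23% of all genes in the class, and 0 downward, against 10.3%.

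The RBC-like and ON cone bipolar-like classes were lower. In RBC-like cells 10 of 10 genes lay below 0, from -0.43 for mt-Nd3 (1358 CPM in WT, 1009 in rd10-vehicle) to -0.16 for mt-Nd1, and the sum was -0.23 (-0.24 to -0.22). In ON cone bipolar-like cells 9 of 10 lay below 0 and the sum was -0.21 (-0.22 to -0.19), or -0.094 with only cells of at least 1000 genes and -0.35 as the mean over cells, with mt-Nd3 at 1342 and 903 CPM (-0.57, -0.68 to -0.46), mt-Nd2 at 4593 and 3646 CPM (-0.33, -0.39 to -0.28), and mt-Nd5 the exception at 0.05. In RBC-like cells 1 of 10 was past the fold downward and 0 upward, against 5.04% and 6.36% of all genes. For the ON cone bipolar-like class the counts were 2 downward and 0 upward, against 12% and 11.8%. OFF cone bipolar-like cells differed little, the sum being 0.014 apart (-0.0011 to 0.028). Cluster 6, which carried 5 of 8 ON cone bipolar and 5 of 9 amacrine markers, had 9 of 10 genes above 0 and a median of 0.16.

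In MG-like cells the sum was 0.04 higher (0.03 to 0.05), or 0.10 as the mean over cells, but its parts went different ways. The 3 complex IV genes were higher: mt-Co1 stood at 6339 CPM in WT and 7592 in rd10-vehicle (0.26, 0.24 to 0.28), mt-Co3 at 7737 and 9325 CPM (0.27, 0.25 to 0.29) and mt-Co2 at 6878 and 7859 CPM (0.19). Lower were mt-Nd2, at 8354 and 6840 CPM (-0.29, -0.31 to -0.27), and mt-Nd3, at 1462 and 1169 CPM (-0.32, -0.37 to -0.28). The other 5 genes lay between -0.06 and 0.01. Only mt-Nd3 was past the fold, so 1 of 10 downward and 0 upward, against 17.5% and 14.0% of all genes in MG-like cells.

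Other features moved with the library in the same cells. In MG-like cells Malat1, an RNA kept in the nucleus, stood at 88690 CPM in WT against 64598 in rd10-vehicle and 57160 in rd10-TMB. The summed level of the 9 rod markers in MG-like cells was 929, 1353 and 1471 CPM with no marker at 0, that of the 8 cone markers was 99, 212 and 261 CPM with 1 marker at 0 in WT, and that of the 6 lens markers was 13, 62 and 38 CPM with 3 at 0 in WT. Outside Müller glia, their 8 markers summed to 323, 743 and 693 CPM in the cone-like class, to 246, 724 and 612 CPM in the rod-like class, to 242, 645 and 549 CPM in the ON cone bipolar-like class and to 110, 469 and 313 CPM in the RBC-like class, with none at 0. In rd10-vehicle the 9 rod markers were lower than in WT in ON cone bipolar-like cells, at 4132, 2842 and 3942 CPM. They were also lower in RBC-like cells, at 939, 523 and 892 CPM, and in cone-like cells, at 11849, 10829 and 11707 CPM, with none at 0. The mitochondrial sum was lower in those bipolar-like classes and higher in cone-like cells. The 6 astrocyte markers summed to 191, 552 and 413 CPM in MG-like cells with 1 at 0 in each library, and the 9 amacrine markers to 171, 43 and 28 CPM in the ON cone bipolar-like class with 1, 3 and 3 at 0. The part of these in the differences was not tested. WT alone held males. With only WT cells that had an Xist UMI and no Y-linked UMI as the reference, the sum in MG-like cells was 0.21 instead of 0.04 and in rod-like cells 0.38 instead of 0.24. Xist RNA is kept in the nucleus, and the WT cells so kept had a lower median mitochondrial share, 4.52% instead of 5.44% in MG-like and 4.00% instead of 4.43% in rod-like cells, so sex and share cannot be told apart here.

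**Figure D3:**
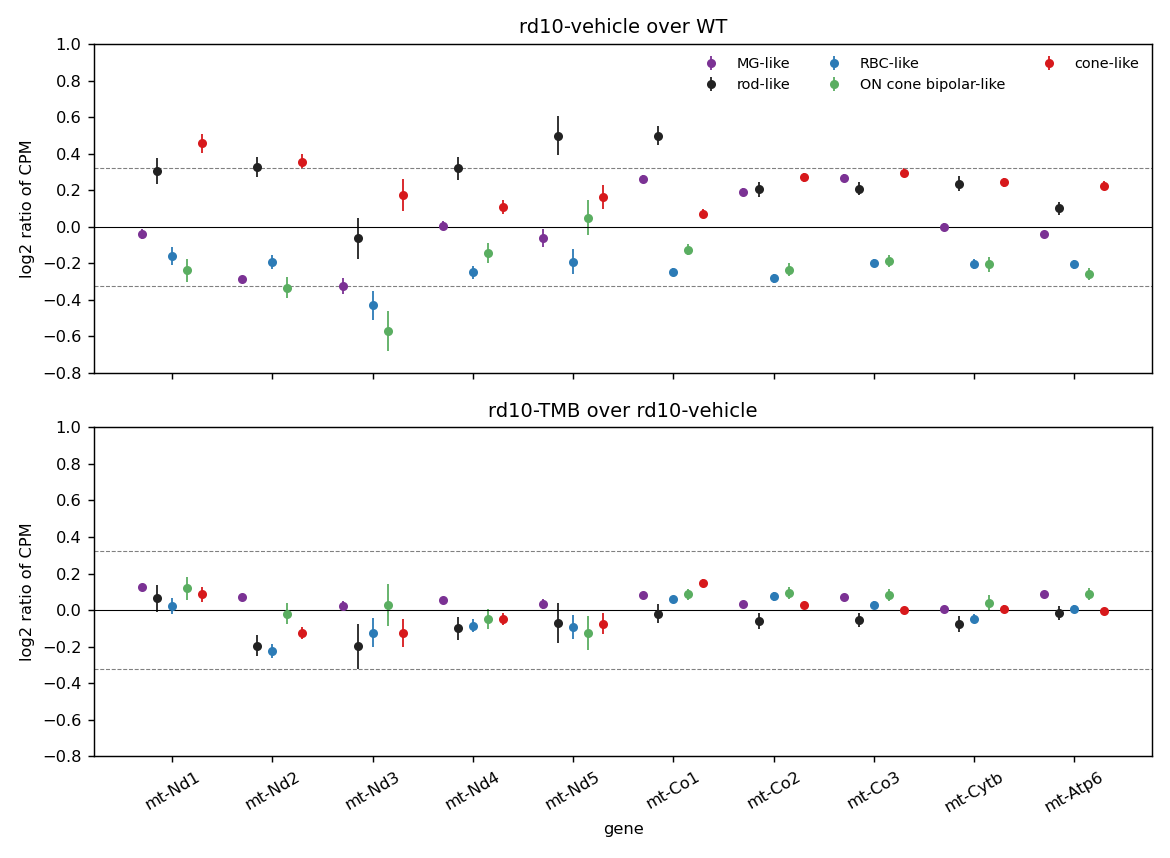
Log2 ratio of CPM for each of the 10 genes (1 point each, bars for the 95% counting interval) in the 5 main classes, for rd10-vehicle over WT and for rd10-TMB over rd10-vehicle, with dashed lines at 0.322 and -0.322. In rd10-vehicle over WT the points run from -0.57 (mt-Nd3, ON cone bipolar-like) to 0.50 (mt-Co1 and mt-Nd5, rod-like), while in rd10-TMB over rd10-vehicle they lie between -0.22 and 0.15.

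Against rd10-vehicle, the drug-treated library differed little in these genes. In rd10-TMB over rd10-vehicle 0 of 10 genes were past the fold in either direction in any of the 5 main classes. The shares of all genes past the fold, upward and downward, were 4.47% and 4.00% for cone-like, 6.22% and 5.39% for rod-like, 3.91% and 3.07% for ON cone bipolar-like, 2.57% and 3.56% for RBC-like and 2.38% and 4.57% for MG-like cells. The log2 difference of the summed level was 0.02 for cone-like (0.01 to 0.02), -0.06 for rod-like (-0.08 to -0.04), 0.06 for ON cone bipolar-like (0.05 to 0.08), 0.00 for RBC-like (-0.01 to 0.01) and 0.06 for MG-like cells (0.06 to 0.07). As the mean over cells the cone-like value turned to -0.0013. Single genes ranged from -0.22 to 0.15. The lowest was mt-Nd2 in RBC-like cells, at 4309 CPM in rd10-vehicle and 3693 in rd10-TMB. The highest was mt-Co1 in cone-like cells, at 15151 and 16813 CPM.

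In MG-like cells 10 of 10 genes were at or above the rd10-vehicle level, by 0.0041 for mt-Cytb, the electron-carrying subunit of complex III, at 6322 and 6340 CPM, up to 0.12 for mt-Nd1, at 3458 and 3769 CPM. With cells weighted by mitochondrial share, the 10 genes ran from -0.044 to 0.078 with a median of 0.011. Since the 10 genes make up most mitochondrial UMIs, this weighting draws their levels together by construction. In the unweighted sums mt-Nd2, at 8354 CPM in WT, was at 6840 in rd10-vehicle and 7195 in rd10-TMB, and mt-Co3, at 7737 CPM in WT, was at 9325 and 9787. In rod-like cells 9 of 10 lay below, with mt-Nd2 and mt-Nd3 at -0.20 each, but the summed difference of -0.06 turned to 0.038 with cells of 10% mitochondrial share or less. Outside the 5 main classes, the summed level was -0.14 in amacrine-like cells, -0.18 in cluster 10, -0.08 in cluster 6 and -0.06 in OFF cone bipolar-like cells. The clusters joined as amacrine-like differed in direction. Cluster 5 went from 4.45% in 43 cells to 3.45% in 35, and cluster 9 from 4.61% in 62 cells to 4.89% in 48. Those joined as OFF cone bipolar-like did too. Cluster 7 went from 8.13% in 178 cells to 9.15% in 128, and cluster 8 from 6.15% in 149 cells to 5.37% in 140. In endothelial-like cells the summed level was 0.12, with 9 of 10 genes above 0. The median of the 10 was 0.11, and -0.022 with cells weighted by share, which follows in part from the weighting itself. In cluster 10, 2 of 10 were past the fold downward, mt-Nd2 at -0.37 and mt-Nd4 at -0.32, against 13.5% of all genes. With cells weighted by mitochondrial share 0 were, which again follows in part from the weighting. Both comparisons use the same rd10-vehicle library.

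Taking each gene as a share of mitochondrial UMIs removes the total mitochondrial share of the cells, and on that scale mt-Nd3 stood out. It took less of the mitochondrial UMIs in rd10-vehicle than in WT in 10 of 10 classes, by -0.44 to -0.06 on the log2 scale with a median of -0.24. Its share in the order WT, rd10-vehicle and rd10-TMB was 2.46%, 1.92% and 1.87% for MG-like, 2.30%, 1.87% and 1.70% for rod-like, 1.73%, 1.34% and 1.31% for ON cone bipolar-like and 1.62%, 1.41% and 1.30% for RBC-like cells. The counting intervals of the rd10-vehicle to WT ratio reached above 0 in cone-like cells (-0.14 to 0.03) and in cluster 10 (-0.25 to 0.08). With rd10-TMB over WT the differences ran from -0.44 to -0.18, below 0 in 10 of 10 classes, but that comparison uses the same WT library.

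The shares of the other genes were less uniform against WT. The share of mt-Nd2 was lower in rd10-vehicle in 5 of 10 classes and higher in 5, and that of mt-Co1 was lower in 6 and higher in 4, from -0.17 in amacrine-like to 0.26 in rod-like cells. Cluster 5 held 461 and cluster 9 295 of the amacrine-like cells in WT but 43 and 62 in rd10-vehicle. With rd10-TMB over WT, mt-Nd2 was lower in 9 of 10 classes with a median of -0.13, and mt-Co1 and mt-Co3 were higher in 8 of 10 each. Between rd10-TMB and rd10-vehicle the share of mt-Co1 was higher in 10 of 10 classes, with the counting interval above 0 in 7. The difference ran from 0.02 in MG-like to 0.22 in amacrine-like cells. The share of mt-Nd4, another proton-pumping subunit of complex I, was lower in 10 of 10, by -0.14 to -0.01, with the counting interval below 0 in 5. Within bins of the cells' mitochondrial share mt-Co1 was higher in 4 of 4 for MG-like and for cone-like cells and in 2 of 2 for RBC-like cells. It was higher in 4 of 5 for ON cone bipolar-like and in 3 of 4 for rod-like cells. Within bins mt-Nd4 was lower in 2 of 4 and higher in 2 of 4 for MG-like and for rod-like cells. It was lower in 3 of 4 for cone-like, 5 of 5 for ON cone bipolar-like and 2 of 2 for RBC-like cells. mt-Nd2 was lower in 9 of 10, from -0.22 in RBC-like to 0.01 in MG-like cells, and mt-Nd3 in 9 of 10, from -0.17 to 0.02, with the interval below 0 in 4. The classes of a library share its preparation and any free RNA in the suspension, so they are not separate samples.

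The mitochondrial share of single cells differed between libraries within a class, and this moved with the summed level. In cone-like cells the median share was 8.77% in WT against 10.2% in rd10-vehicle and 10.3% in rd10-TMB, and 29.9%, 52.6% and 53.9% of cells exceeded 10%. In MG-like cells the medians were 5.44%, 6.14% and 6.48%, with 12.3%, 3.45% and 6.24% of cells over 10%. In ON cone bipolar-like cells they were 8.08%, 6.35% and 6.63%, with 40.4%, 17.6% and 22.1% of cells over 10%. MG-like cells were more spread out in WT than in rd10-vehicle, from 0.32% at the 5th percentile to 13.3% at the 95th against 2.70% to 9.20%.

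**Figure D4:**
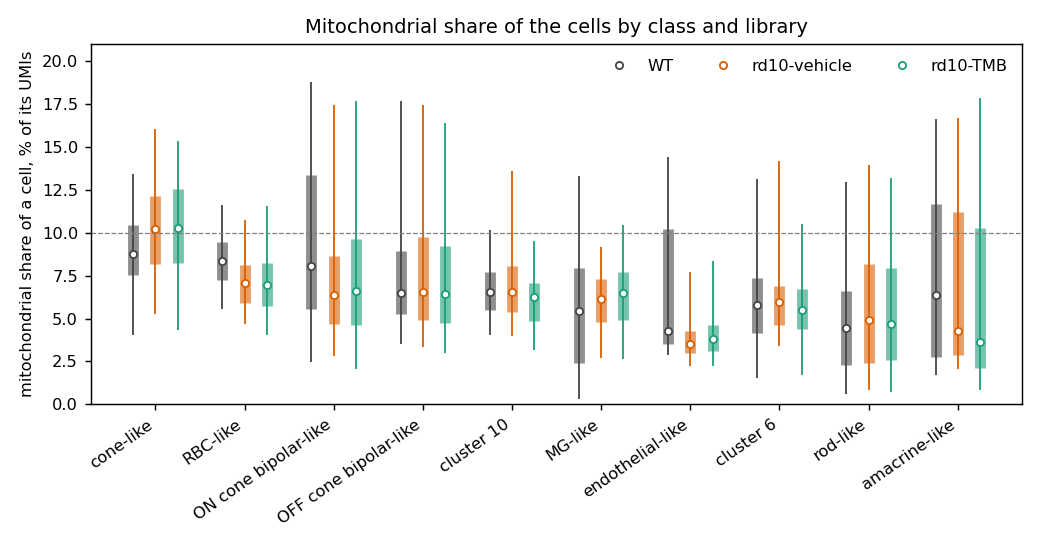
Mitochondrial share of UMIs of single cells (vertical axis, percent) by class (horizontal axis) and library, with the median as a point, the thick line from the 25th to the 75th percentile, the thin line from the 5th to the 95th, and a dashed line at 10%. The medians of cone-like cells lie at 8.77%, 10.2% and 10.3%, and WT MG-like cells spread from 0.32% to 13.3%.

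With only cells of 10% or less, the difference in the summed level between rd10-vehicle and WT shrank to 0.0099 for cone-like, -0.0046 for ON cone bipolar-like and 0.069 for rod-like cells, grew to 0.18 in MG-like cells and was -0.21 in RBC-like cells. This filter cuts on nearly the quantity compared, since the 10 genes make up most mitochondrial UMIs, and it drops more cells from one library than from the other, so a smaller difference in cone-like and ON cone bipolar-like cells follows in part from the filter itself. When cells were weighted so that both libraries had the same distribution over 5 bins of the share (under 4%, 4 to 8%, 8 to 12%, 12 to 16%, and 16% and over), the total was matched only to the width of the bins, since MG-like cells under 4% still held 1.92% of the 10 genes in WT and 3.02% in rd10-vehicle. This weighting also acts on nearly the quantity compared, so it draws the levels of the 10 genes together by construction. In rod-like cells mt-Co1 was then 0.36 and mt-Nd5 0.38 higher in rd10-vehicle, while mt-Nd2 went from 0.33 to 0.17. In cone-like cells mt-Nd1 was 0.34 and mt-Nd2 0.22 higher. In RBC-like cells the range of the 10 genes went from between -0.43 and -0.16 to between -0.27 and 0.00, and in ON cone bipolar-like cells the median went from -0.22 to 0.02, with mt-Nd3 at -0.33.

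In MG-like cells the composition differences were nearly as large with matched shares as without. In these cells the difference in the share of mitochondrial UMIs between rd10-vehicle and WT was 0.22 for mt-Co1, 0.23 for mt-Co3, -0.32 for mt-Nd2 and -0.36 for mt-Nd3, and with weighted cells it was 0.20, 0.24, -0.31 and -0.36. Within the 4 bins that held enough cells, mt-Co1 was higher by 0.19 to 0.28 in 4 of 4 and mt-Nd3 lower, from -0.47 to -0.26, in 4 of 4. For mt-Nd2 the range was -0.41 to -0.31. The bin of 12 to 16% was not used, with 15 WT and 19 rd10-vehicle MG-like cells, and that of 16% and over rests on 20 and 23 cells. In rod-like cells mt-Co1 was higher by 0.22 to 0.32 in 4 of 4 bins and mt-Nd3 lower in 4 of 4, from -0.41 to -0.07. In cone-like cells mt-Nd3 went both ways, from -0.17 to 0.25 over 3 bins. Composition also moved with the share within a library, since mt-Co1 took 20.8% of mitochondrial UMIs in WT ON cone bipolar-like cells under 4% and 15.5% in those of 16% and over.

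A high mitochondrial share went with different cells in different classes. In WT MG-like cells Malat1 took 130363 CPM of the UMIs that are not mitochondrial in cells under 4% and 3464 CPM in the 20 cells of 16% and over. Between these ends the summed nuclear genes of complexes I to V went from 15564 to 32999 CPM and median UMIs from 4728.5 to 2333. UMIs did not fall steadily, since over all 530 WT MG-like cells Spearman's rho of the share with UMIs was 0.32. In WT ON cone bipolar-like cells Malat1 went the other way, from 51727 to 109688 CPM, the nuclear chain genes from 28052 to 8788 CPM, and median UMIs from 3534.5 to 1233. Amacrine-like cells had the pattern of the ON cone bipolar-like cells, with Malat1 at 67282 CPM and nuclear chain genes at 29370 CPM under 4% and 125773 and 8849 CPM at 16% and over. High-share MG-like cells thus held little Malat1 and much nuclear-encoded chain messenger, and high-share ON cone bipolar-like and amacrine-like cells the opposite.

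Across single WT cells Spearman's rho of the mitochondrial share with the Malat1 level was -0.77 over 530 MG-like cells and 0.47 over 386 ON cone bipolar-like cells. In the rd10 libraries it had the same sign and was nearer 0, at -0.28 and -0.36 in MG-like and 0.15 and 0.20 in ON cone bipolar-like cells for rd10-vehicle and rd10-TMB. Cells of 1 library share their preparation, and both quantities are parts of the same total.

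**Figure D5:**
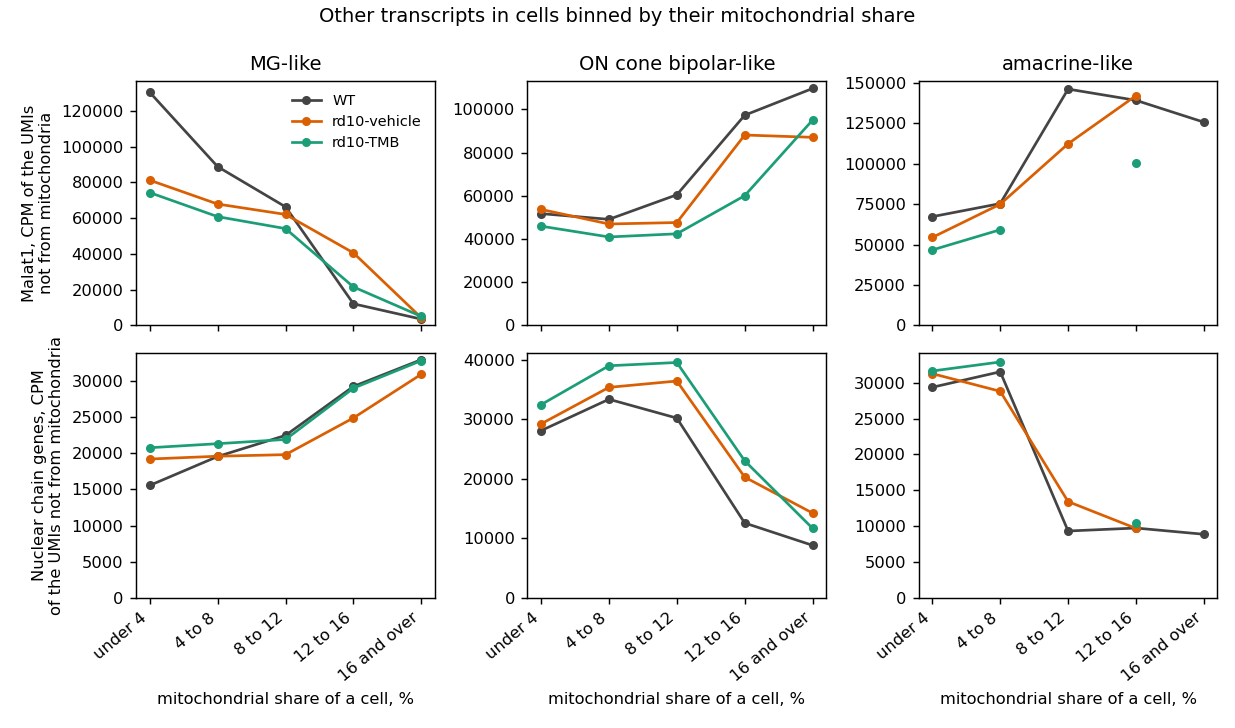
Malat1 and the summed nuclear-encoded chain genes, in CPM of UMIs that are not mitochondrial, by bin of the mitochondrial share of the cell (horizontal axis, percent) in MG-like, ON cone bipolar-like and amacrine-like cells of each library, for bins with at least 10 cells. In WT MG-like cells Malat1 goes from 130363 to 3464 CPM with rising share, and in WT ON cone bipolar-like cells from 51727 to 109688 CPM.

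Of the 10 classes the endothelial-like one had the widest gap between rd10-vehicle and WT, and most of it was lost without the cells that lacked endothelial markers. The summed level was 5.35% in WT against 3.62% in rd10-vehicle and 3.93% in rd10-TMB, a difference of -0.56 for rd10-vehicle over WT (-0.58 to -0.55), and 10 of 10 genes were past the fold downward, against 14.3% of all genes. Among the cells with at least 3 endothelial marker UMIs, a choice made after seeing the data, the level was 3.79% over 91 cells of WT, 3.44% over 149 of rd10-vehicle and 3.74% over 92 of rd10-TMB, and the difference was -0.14. The 46 WT cells with fewer such UMIs had a level of 11.5%. With cells weighted by share the median of the 10 genes went from -0.63 to -0.01, which follows in part from the weighting itself.

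The nuclear genes of the chain were compared as a list of 78 genes, 37 of complex I, 4 of complex II, 9 of complex III, 11 of complex IV and 17 of complex V. In rd10-vehicle over WT they did not follow the mitochondrial genes in each class. The median log2 difference was 0.23 for the nuclear list in ON cone bipolar-like cells, where the median of the 10 mitochondrial genes was -0.22, and 0.00 in cone-like cells, where it was 0.23. In rod-like cells the medians were 0.12 and 0.27, in RBC-like cells -0.05 and -0.20, and in MG-like cells 0.02 and -0.02. In ON cone bipolar-like cells 17 of 76 tested nuclear genes were past the fold upward and 0 downward, against 11.8% and 12% of all genes, and the median went to 0.12 with cells weighted by share.

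In rd10-TMB over rd10-vehicle the nuclear list stood slightly above 0 in each main class. Taking the cone-like, rod-like, ON cone bipolar-like, RBC-like and MG-like classes in turn, the medians were 0.11, 0.12, 0.10, 0.14 and 0.11, beside 0.03, 0.03, 0.01, 0.00 and -0.02 over all genes tested and -0.0038, -0.066, 0.061, -0.021 and 0.062 over the 10 mitochondrial genes. Above 0 were 63 of 78, 54 of 74, 59 of 77, 72 of 78 and 59 of 78 genes. Past the fold upward were 5, 10, 0, 5 and 2, against 4.47%, 6.22%, 3.91%, 2.57% and 2.38% of all genes, and downward 0, 1, 0, 0 and 0, against 4.00%, 5.39%, 3.07%, 3.56% and 4.57%. In MG-like cells the 2 of 78 upward are thus near the share over all genes. Of the 5 complexes, complex IV had the highest median in each of these classes, at 0.21, 0.30, 0.15, 0.26 and 0.20. Malat1 stood below the rd10-vehicle level in rd10-TMB in the same 5 classes, for example 33036 against 40771 CPM in RBC-like and 56079 against 63928 CPM in rod-like cells, while ribosomal protein genes took a larger share of UMIs, for example 5.90% against 5.14% in rod-like and 7.38% against 6.82% in MG-like cells. The part of both was not tested.

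Of the 11 nuclear complex IV genes, the ends in MG-like cells were as follows. Cox7c was at 408 CPM in rd10-vehicle and 495 in rd10-TMB (0.28, 0.23 to 0.32) and Cox6b1 at 338 and 402 CPM (0.25, 0.20 to 0.30), while the lower end held Cox4i1, at 843 and 891 CPM (0.08), and Cox5a, at 184 and 180 CPM (-0.03, -0.10 to 0.04). In RBC-like cells the ends were held by Cox6b1 (0.41), Cox7c (0.33), Cox4i1 (0.09) and Cox5a (0.08). Of the complex I genes in MG-like cells Ndufa1 and Ndufa6 were highest, both at 0.33, and Ndufs1 and Ndufa10 lowest, at -0.05 and -0.07. The complex V genes Atp5l (0.26) and Atp5j2 (0.23) were highest there and Atp5k (-0.08) and Atp5b (-0.11) lowest.

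Genes that express the mitochondrial genome were mostly too sparse to compare outside Müller glia. Of 23 such genes (polymerase, replication, processing and stability factors), 19 were tested in MG-like cells in rd10-TMB over rd10-vehicle, with 0 past the fold upward, 2 downward and a median of -0.09, against 2.38% and 4.57% of all genes. Those 2 were Twnk, the replicative helicase, at 6.80 and 5.13 CPM (-0.40, -0.81 to -0.02), and Fastkd2, an RNA-binding protein needed to build the mitochondrial ribosome, at 6.44 and 4.71 CPM (-0.44, -0.87 to -0.05). Slirp, which stabilises mitochondrial messengers, was at 72.03 and 78.02 CPM in MG-like cells (0.12, 0.01 to 0.22) and at 109 and 131 CPM in RBC-like cells (0.26, 0.03 to 0.49). Of the 5 regulators of mitochondrial biogenesis 5 were tested in MG-like cells, 1 was past the fold upward and 0 downward, against the same shares, and the former was Ppargc1b, a coactivator, at 4.64 and 6.38 CPM (0.46, 0.05 to 0.86).

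The nuclear genes closest to the summed mitochondrial genes were sought with the 13 mitochondrial genes left out, since members correlated with each other at a median of 0.73. Over the 35 sums of a cluster in a library and among 942 nuclear genes with at least 20 UMIs in each sum, the highest Pearson correlations of log2 CPM were those of Park7 (r = 0.72, Spearman's rho = 0.56), Anp32e (0.68 and 0.51), Ndfip1 (0.66 and 0.45), Tomm6, a subunit of the outer membrane import channel (0.65 and 0.53), and Hist1h2bc (0.65 and 0.51). These are descriptions over sums that share libraries and total to the same scale.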

How the data were processed

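Cell Ranger 6.0.1 was run by the authors at its default settings against mm10, the outputs were merged in Cumulus, and Scrublet took out doublets ahead of deposit. Cells with 500 genes or more were kept in Seurat and clustered after Harmony. The deposited matrix holds the natural log of 1 plus the UMIs of a gene per 10000 in that cell, and the deposited cell table gives each cell's total UMI count and cluster number. Their tests over cells were not used. Here the log was undone for 32620606 values, which gave whole UMIs in 100% of them within 0.001 UMI, no doublet caller was run, and no cell was left out. Libraries shared 8, 10 and 7 cell barcodes in pairs.

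Sums of UMIs over the cells of a class in a library were expressed as CPM. A cluster was named from at least 3 markers that were 2-fold over the other cells and at 20 CPM or more. The amacrine-like class joins clusters 5 and 9, and the OFF cone bipolar-like class 7 and 8. Cells are not replicates, so no p-value was computed. Log2 ratios had a pseudocount of 1 UMI, shares exact Clopper-Pearson and ratios exact conditional 95% intervals. Past the fold means a log2 difference of at least 0.322 with at least 200 UMIs over both libraries. Named were all 13 mitochondrial genes, of each nuclear list the 2 highest and 2 lowest in rd10-TMB over rd10-vehicle in the class described, and the 5 genes most correlated with the sum. The genes and lists were chosen with earlier results of these data known. Alternatives changed the scaling total, the size factors, the weight of cells, cell filters, depth (1000 UMIs per cell), the WT cells used and the thresholds. The code was tested on simulated data. Python 3.11.15, numpy 2.4.6, scipy 1.17.1, pandas 2.3.3 and matplotlib 3.10.9 were used.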

Additional observations from a re-analysis of the deposited data

Results flagged for a closer look

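For 4 of the genes the rd10-vehicle library lay above WT in one class and below it in another, each by at least 0.322 on the log2 scale. These differences between classes were not tested, since each group is 1 library. mt-Co1 was 0.50 higher on the log2 scale in rod-like and -0.67 in endothelial-like cells. mt-Nd1 was 0.46 higher in cone-like and -0.55 in endothelial-like cells. mt-Nd2 was 0.33 higher in rod-like and 0.36 in cone-like cells, and -0.33 in ON cone bipolar-like and -0.32 in endothelial-like cells. mt-Nd5 was 0.50 higher in rod-like cells and 0.37 in cluster 6, and -0.76 in endothelial-like cells. The endothelial-like values include the 46 WT cells with fewer than 3 endothelial marker UMIs. For mt-Co1, mt-Nd1 and mt-Nd5 the downward direction past the limit came from endothelial-like cells alone. With cells weighted by mitochondrial share, 0 of 10 genes were past that limit in endothelial-like cells, where they ran from -0.25 to 0.077. In cluster 6, 0 were past it upward, and the highest was 0.27. mt-Nd2 was then at 0.17 in rod-like, 0.22 in cone-like and -0.073 in ON cone bipolar-like cells. The weighting equalises nearly the quantity compared, so these smaller values follow in part from it and do not decide whether the contrasts hold.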

How the results depend on the processing

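With 1 library per group, no setting measures the spread between mice, and the numbers of cells and UMIs limit only the counting error. Values are log2 differences of the summed level unless named otherwise, given in the order cone-like, rod-like, ON cone bipolar-like, RBC-like, MG-like and endothelial-like cells. For rd10-vehicle over WT, a scaling total without mitochondrial and ribosomal protein genes gave 0.26, 0.26, -0.21, -0.24, 0.057 and -0.59. Median-of-ratios size factors gave 0.26, 0.27, -0.24, -0.24, 0.072 and -0.58, and the mean of the per-cell share gave 0.20, 0.21, -0.35, -0.22, 0.10 and -0.67. Cells of 10% or less gave 0.0099, 0.069, -0.0046, -0.21, 0.18 and -0.25. Cells with at least 1000 genes gave 0.23, 0.12, -0.094, -0.23, 0.053 and -0.56, and dropping the top 5% of cells by UMIs gave 0.21, 0.22, -0.23, -0.23, 0.067 and -0.63. Thinning to 1000 UMIs (348 WT, 166 rd10-vehicle and 203 rd10-TMB cells were shallower) gave 0.21, 0.24, -0.36, -0.22, 0.11 and -0.63, and 1750 WT cells with an Xist UMI and no Y-linked UMI gave 0.24, 0.38, -0.14, -0.20, 0.21 and -0.28. Endothelial-like cells with at least 3 marker UMIs gave -0.14. For rd10-TMB over rd10-vehicle, the first total gave 0.024, -0.051, 0.070, 0.0035, 0.079 and 0.14, median-of-ratios -0.0079, -0.093, 0.058, 0.0014, 0.087 and 0.12, and the per-cell mean -0.0013, -0.057, 0.084, 0.016, 0.10 and 0.089. Cells of 10% or less gave 0.018, 0.038, 0.033, -0.018, 0.051 and 0.15, cells with at least 1000 genes 0.018, -0.055, 0.074, -0.0020, 0.060 and 0.12, dropping the top 5% 0.018, -0.024, 0.068, 0.0090, 0.081 and 0.12, and thinning 0.013, -0.089, 0.11, 0.0053, 0.098 and 0.087. The median of the nuclear chain genes with the first total was 0.034 for cone-like, -0.063 for RBC-like and 0.040 for MG-like cells in rd10-vehicle over WT, and 0.13 for MG-like cells in rd10-TMB over rd10-vehicle. With cells weighted by share it was 0.12 and 0.13 for the ON cone bipolar-like class. That weighting draws the levels of the 10 genes together by construction. With it, 4 genes had the opposite sign in endothelial-like cells for rd10-vehicle over WT. These were mt-Nd2 at 0.070, mt-Nd5 at 0.077, mt-Cytb at 0.013 and mt-Atp6 at 0.012. Genes past the fold, summed over the 5 main classes, numbered 5273 for rd10-vehicle over WT (13862 with a minimum of 50 UMIs, 1590 at 1.5-fold) and 1698 for rd10-TMB over rd10-vehicle (7756 and 228), while members past it numbered 9 (9 and 0) and 0 (0 and 0). The sign of a gene's difference in level stayed in 90 of 120 results with weighted cells, where the 4 named genes were those past the fold that turned, and in 100 of 120 with cells of 10% or less. That of its share of mitochondrial UMIs stayed in 112 of 120 results with weighted cells, in 113 of 120 with cells of 10% or less and in 107 of 120 with cells of 4% to under 8%, a range chosen after seeing the data. For the other differences between settings the cause was not tested. No paired analysis was possible because each group is 1 library.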

Other observations

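The 3 mitochondrially encoded genes outside the set each took at most 1.17% of mitochondrial UMIs in the WT classes. mt-Nd6, a complex I subunit and the only one of the 13 on the other strand, took 0.09% of mitochondrial UMIs in WT MG-like and 0.16% in WT ON cone bipolar-like cells, and in rd10-vehicle 0.08% and 0.11%. Its share was lower in rd10-vehicle than in WT in 9 of 10 classes, down to -0.58 in amacrine-like cells, and with so few UMIs the counting interval lay below 0 in 2 of them. mt-Atp8, whose reading frame overlaps that of mt-Atp6, had a lower share in rd10-TMB than in rd10-vehicle in 10 of 10 classes. The difference ran from -0.39 in cluster 10 to -0.06 in rod-like cells, with the counting interval below 0 in 7. mt-Nd4l had a lower share there in 8 of 10 classes, from -0.25 to 0.04.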
